A study of Homo sapiens with 6 samples.

Results

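The genes described here are HLA-B, HLA-C, HLA-E and HLA-F, which encode MHC class I heavy chains, B2M, TAP1, TAP2 and TAPBP of class I assembly, and NLRC5, the class I transactivator. They were taken by gene symbol, and all 9 of 9 were found, once each, among 60605 genes of the count table and among the 16003 genes with enough reads to test. The RNA came from SW620 cells, an established human line of colorectal cancer. A group of 3 libraries carried a lentiviral ELAPOR1 construct, and the other 3 libraries carried the same vector (pLVX-IRES-Puro) without an insert. Cells of both groups went through infection (multiplicity 20), selection in puromycin (2 ug/ml) and culture in 10% serum, and the labels list no further treatment. Both groups are stably selected populations of a single line, and the labels number the libraries 1 to 3 without saying whether they came from separate infections or cultures. Each p-value thus rests on the variation among these libraries alone, and that variation may be technical. Because each library is bulk RNA, a change in the share of cells that express a gene and a change in RNA per cell cannot be told apart.

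MHC class I molecules display peptides from inside the cell to CD8+ T cells, and natural killer cells read their level. The heavy chain folds in the endoplasmic reticulum with the light chain beta-2-microglobulin, encoded by B2M. TAP1 and TAP2 form the transporter that brings peptides in from the cytosol, and tapasin, encoded by TAPBP, holds the empty heavy chain next to it. NLRC5 enters the nucleus and drives class I genes through a promoter module, the S, X and Y boxes, that is bound by the RFX, CREB/ATF and NF-Y factors. Upstream of this module many class I promoters carry a binding element for NF-kB and one for interferon regulatory factors. Colorectal cancers can lower this pathway, and interferon gamma is its classical inducer.

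The libraries held between 16401813 and 20571924 counts. ELAPOR1 itself (ENSG00000116299), the check of the labels, stood at 8.73 to 11.5 CPM in vector libraries and 20771 to 21494 CPM in ELAPOR1 libraries, CPM being the count scaled to library size with edgeR's TMM factors. Of 12 colon epithelial markers all 12 had counts, which summed to 8439 to 8833 CPM in vector libraries against 7855 to 7869 CPM with ELAPOR1. In that list 5 genes were lower (among them CDH1 at -0.76 and KRT20 at -1.67 on the log2 scale) and 1 was higher (CDH17 at 1.05). KRT20 held 50, 47 and 29 counts in the vector libraries and 4, 17 and 16 in the ELAPOR1 libraries. At the ELAPOR1 counts it would not have entered the test, so it passed the read filter through the vector libraries. Of 13 immune markers, 6 had enough reads to test and 0 passed, 2 were at 0, MS4A1 among them, and the sum was 10.5 to 13.7 CPM in vector libraries against 12.9 to 15.3 CPM with ELAPOR1. NKG7 had the smallest p among them, at -1.07 on the log2 scale (edgeR adjusted p 0.200). The largest parts of the sum were LYZ and CD4. LYZ averaged 5.7 ± 1.4 CPM with vector and 6.5 ± 0.24 CPM with ELAPOR1 (SD, n = 3). CD4 averaged 3.5 ± 0.91 and 4.4 ± 1.4 CPM. Of 10 fibroblast markers, 4 were tested and LUM and ACTA2 were higher (0.64 and 1.9), the latter from 3 to 5 counts per vector library. With so few vector reads, ACTA2 passed the read filter only through the ELAPOR1 libraries. ACTA2 lost its call without vector replicate 1 (adjusted p 0.0766), vector replicate 2 (0.0721), ELAPOR1 replicate 1 (0.0533) or ELAPOR1 replicate 3 (0.103), and also with DESeq2, with no filter and in unfiltered limma. The sum of that list was 17.9 to 19.03 CPM in vector libraries against 25.5 to 31.0 CPM with ELAPOR1, of which LUM made up 14.9 and 23.4 CPM on average. COL1A1 came next, at 2.56 and 2.45 CPM, and did not pass (edgeR adjusted p 0.909). COL1A2, COL3A1 and PDGFRA had 1 count each over all libraries. Of 7 endothelial markers, 3 were tested and 0 passed, KDR, CDH5 and TEK were at 0, and VWF was at -0.21 (adjusted p 0.778). The part of these marker differences in the class I results was not tested.

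The promoters of HLA-B, HLA-C, HLA-F and B2M are printed first, because these genes share a control module while their mRNAs did not move alike. Each line is the stretch from 190 to 41 bases upstream of the RefSeq gene start (GRCh38.p14), 5′ to 3′ on the strand of the gene. Capitals mark matches on either strand to the motifs searched, which are given after the sequences. The windows are chr6:31357220-31357369 (minus strand) for HLA-B, chr6:31272133-31272282 (minus strand) for HLA-C, chr6:29723244-29723393 (plus strand) for HLA-F and chr15:44711327-44711476 (plus strand) for B2M.
HLA-B: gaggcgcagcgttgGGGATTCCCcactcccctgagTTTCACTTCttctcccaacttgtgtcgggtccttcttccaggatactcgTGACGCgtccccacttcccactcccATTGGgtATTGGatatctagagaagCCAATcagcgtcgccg
HLA-C: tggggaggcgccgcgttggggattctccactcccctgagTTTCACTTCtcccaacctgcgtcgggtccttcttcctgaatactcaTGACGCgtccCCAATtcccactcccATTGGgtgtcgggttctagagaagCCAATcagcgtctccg
HLA-F: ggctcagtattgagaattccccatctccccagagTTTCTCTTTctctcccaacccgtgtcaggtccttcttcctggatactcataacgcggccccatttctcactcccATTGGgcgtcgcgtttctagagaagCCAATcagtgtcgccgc
B2M: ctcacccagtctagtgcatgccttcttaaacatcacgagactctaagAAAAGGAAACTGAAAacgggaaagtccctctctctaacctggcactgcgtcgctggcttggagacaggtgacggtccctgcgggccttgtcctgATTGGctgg

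The motifs were the kB element core GGGATTCCC, the interferon-stimulated response element core TTTCNNTTT and its class I variant TTTCNNTTC, the X2 box core TGACGC, and ATTGG, the NF-Y site of the Y box. Among 35116 RefSeq promoters, each taken from 250 bases before to 50 after the start, these were present in 0.384%, 10.5%, 7.66%, 9.14% and 34.6%. The response element and its variant can overlap each other. The kB and interferon cores were shortened after longer forms had been searched, so which promoters match depends on the letters chosen. With these letters the kB core was matched in HLA-B, 176 bases upstream of the start. The closest stretch of the HLA-C promoter differed from it by C8T, and that of HLA-F by G1A and G3A (the HLA-B base first, positions counted from 1 at the 5′ end of the core). HLA-B and HLA-C each held the variant response element and the X2 core, 155 and 106 bases upstream in HLA-B and 151 and 105 in HLA-C. HLA-F held the response element core 156 bases upstream, and B2M held it on the other strand in a pair of overlapping copies that begin 143 and 137 bases upstream. NF-Y sites were present in all 4 windows. Over the printed stretch the HLA-B and HLA-C promoters were 87.0% identical, HLA-B and HLA-F 80.9%, and HLA-B and B2M 42.2%. RefSeq promoters were matched for 7 of the 9 genes, and HLA-E and NLRC5 were not among them. Of the others, TAP1 held 2 overlapping response elements (134 and 128 bases upstream), TAP2 held 1 (57 bases upstream) that overlaps the variant, with an X2 core, and TAPBP held 2 (19 and 13 bases upstream). A sixth motif, the GAS element TTCNNNGAA, was present in 7.66% of promoters and was matched in TAP1 alone of the 7, in the other of its RefSeq promoters. A match describes letters only, and binding was not measured in these cells. The part of these promoter differences in the mRNA changes was not tested.

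Overexpression of ELAPOR1 was compared with vector to ask how it changes gene expression. Of the 9 genes, 4 were higher in ELAPOR1 cells (HLA-B, HLA-F, NLRC5 and TAP1) and 0 were lower at an adjusted p under 0.05, while HLA-C, HLA-E, B2M, TAP2 and TAPBP did not pass. HLA-B, HLA-F and NLRC5 changed by 2.02-fold to 3.09-fold, and TAP1 by 1.19-fold. In the whole transcriptome 10.0% of tested genes were called higher and 11.4% lower, so 44.4% of these genes were called higher against a background of 10.0%. The median log2 fold change of the 9 was 0.10, and that of all tested genes was 0.0041. The groups did not overlap for 5 of the 9 genes, the 4 called and TAPBP, against 33.8% of all tested genes. Past a doubling, at a log2 fold change of at least 1, were 3 of the 9 (HLA-B, HLA-F and NLRC5) against 1.50% of all tested genes. The 9 genes were chosen with earlier results of these data known. Their shares above the background may thus come partly from that choice, and its part was not tested. Of the non-overlapping genes in the transcriptome, those higher with ELAPOR1 were 16.4% of tested genes and those lower 17.4%. DESeq2 called the same 3 genes higher and 0 lower, against 6.31% and 8.02% of its genes, and with a local dispersion trend 3 and 0 against 9.23% and 10.9%. With limma on log2(FPKM + 1) HLA-B alone was called higher and 0 were lower, against 4.87% and 9.42%. The main test was edgeR's quasi-likelihood test with Benjamini-Hochberg adjustment over all tested genes, two-sided.

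**Figure D1:**
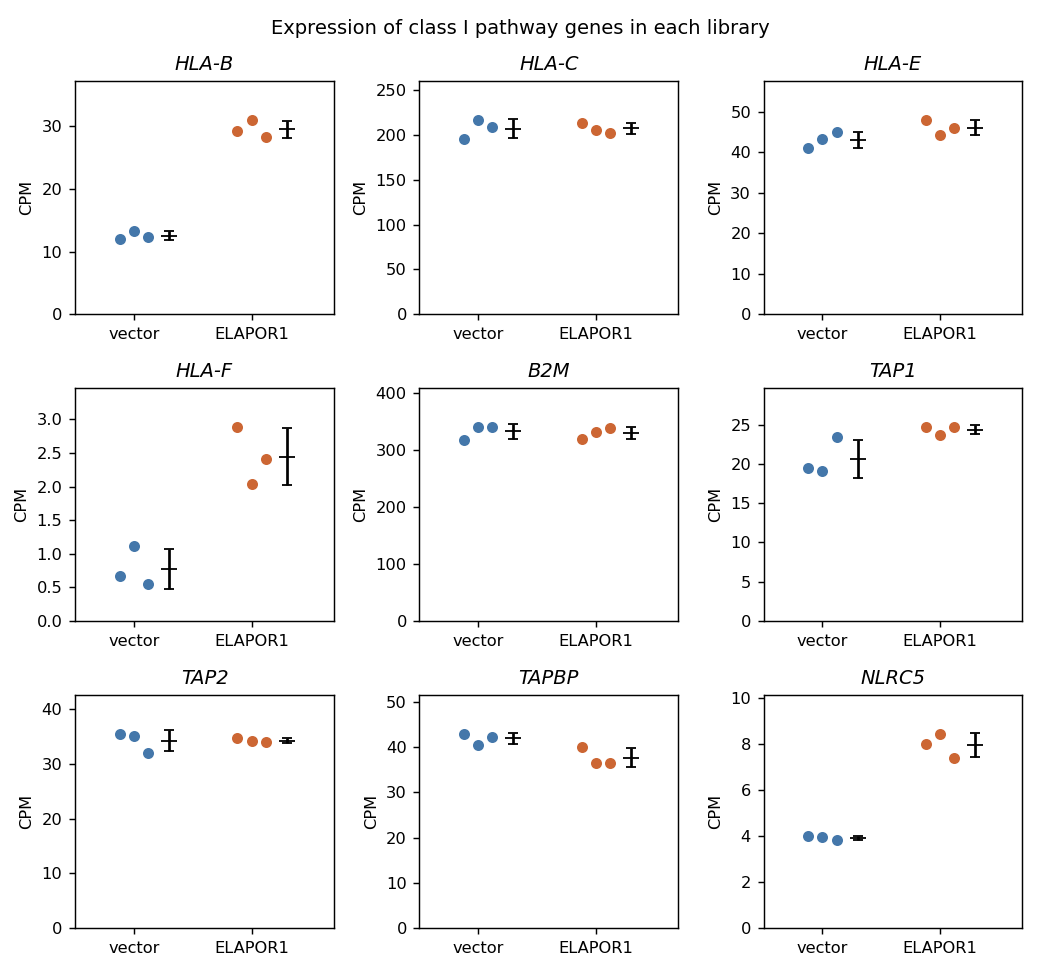
Expression of each of the 9 genes in CPM (counts scaled to library size, y axis, from 0) in the 3 vector libraries (blue) and the 3 ELAPOR1 libraries (orange); bars give mean ± SD. HLA-B, HLA-F and NLRC5 are separated by wide gaps, TAP1 and TAPBP by narrow ones, and the groups overlap for HLA-C, HLA-E, B2M and TAP2.

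HLA-B, a classical heavy chain that presents peptides to CD8+ T cells (ENSG00000234745, GRCh38 chromosome 6, 31353872 to 31357188, minus strand), rose. The vector libraries held 11.95, 13.3 and 12.4 CPM, from 234, 275 and 204 counts. The ELAPOR1 libraries held 29.2, 31.02 and 28.3 CPM, from 475, 594 and 504 counts. Every ELAPOR1 library was above every vector library, with no overlap and a gap wider than the spread within either group. On the log2 scale the difference was 1.23 ± 0.0945 (SE), or 2.35-fold with a 95% interval of 2.06 to 2.68 (edgeR adjusted p 5.14e-18). Of the 50-base words in HLA-B transcripts (GENCODE 29), 17.8% also occur in transcripts of other genes, and 2.48% in those of HLA-C, so reads from those stretches cannot be assigned by sequence alone.

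HLA-C, the other classical heavy chain among these genes (ENSG00000204525, chromosome 6, 31268749 to 31272130, minus strand), was level between the groups. It stood at 196.1, 216.9 and 208.7 CPM in the vector libraries and at 213.8, 206.0 and 202.3 CPM in the ELAPOR1 libraries. The groups overlapped, and the lowest library was a vector library. The means were 207 ± 10.5 and 207 ± 5.86 CPM (SD, n = 3 each), with an adjusted p of 0.996 by edgeR and a 95% interval of the fold difference from 0.950 to 1.05. The rise of HLA-B lies outside that interval. Of the words in HLA-C transcripts, 5.70% occur in those of other genes.

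HLA-E, the heavy chain that presents leader peptides of other class I molecules to natural killer cell receptors (ENSG00000204592, chromosome 6, 30489509 to 30494194, plus strand), did not pass. Its vector libraries held 41.1, 43.1 and 45.0 CPM and its ELAPOR1 libraries 47.97, 44.2 and 46.1 CPM. The groups overlapped by a narrow margin. The fold difference was 1.07, with a 95% interval of 0.978 to 1.17 and an adjusted p of 0.315 by edgeR.

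HLA-F, a nonclassical heavy chain found mostly inside resting cells (ENSG00000204642, chromosome 6, 29722775 to 29738528, plus strand), rose from a very low level. The vector libraries held 13, 23 and 9 counts, or 0.664, 1.11 and 0.546 CPM. The ELAPOR1 libraries held 47, 39 and 43 counts, or 2.89, 2.04 and 2.41 CPM. The groups did not overlap. On the log2 scale the difference was 1.63 ± 0.374 (SE), or 3.09-fold with a wide 95% interval of 1.84 to 5.18 (edgeR adjusted p 0.000587). On the opposite strand HLA-F is overlapped by HLA-F-AS1, an antisense RNA with 297 counts over the 6 libraries, where HLA-F had 174. The antisense RNA was at 0.57 on the log2 scale (adjusted p 0.118). Without strand in the counting, reads of the pair cannot be told apart, and 21.6% of the words in HLA-F transcripts occur in those of other genes. Both facts make the size of the HLA-F change uncertain.

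B2M, the light chain shared by all class I molecules (ENSG00000166710, chromosome 15, 44711487 to 44718851, plus strand), was the most deeply counted of the 9 and was level. It stood at 317, 340 and 341 CPM in the vector libraries and 319, 331 and 339 CPM in the ELAPOR1 libraries, from 5189 to 7011 counts per library. The groups overlapped over nearly their whole range. The 95% interval of the fold difference was 0.948 to 1.04, with an adjusted p of 0.861 by edgeR.

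**Figure D2:**
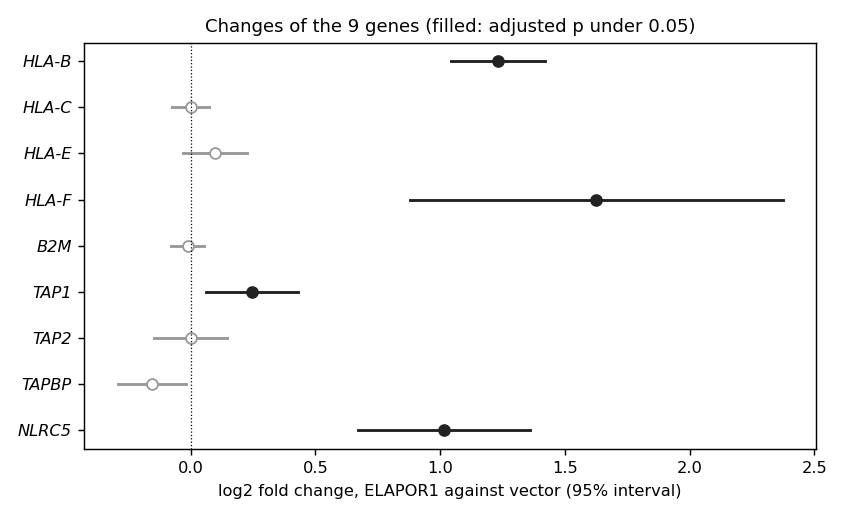
Log2 fold change of each gene, ELAPOR1 against vector (x axis), with its 95% interval; filled points passed an adjusted p of 0.05 in edgeR. HLA-F, HLA-B and NLRC5 lie at 1.63, 1.23 and 1.02, TAP1 lies at 0.25, and the intervals of HLA-C and B2M are narrow around 0.

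Among the genes of peptide loading, TAP1 passed by a small margin (ENSG00000168394, chromosome 6, 32845209 to 32853816, minus strand). It stood at 19.5, 19.03 and 23.4 CPM in the vector libraries and at 24.7, 23.7 and 24.6 CPM in the ELAPOR1 libraries. The groups did not overlap, but the third vector library lay next to the ELAPOR1 libraries. On the log2 scale the difference was 0.25 ± 0.0913 (SE), with edgeR's adjusted p at 0.0439. The call was lost in 5 of the 6 fits that left out a library: the adjusted p was 0.160 and 0.213 when vector replicates 1 and 2 were dropped in turn, and 0.107, 0.0643 and 0.115 for ELAPOR1 replicates 1, 2 and 3. It was 0.0114, with a log2 fold change of 0.338, without vector replicate 3. DESeq2 gave an adjusted p of 0.161, and the authors' deposited table gives 0.0578. TAP1 overlaps PSMB9 and PSMB8-AS1 on the other strand, with 340 and 122 counts over the 6 libraries where TAP1 had 2454, and 9.78% of the words in TAP1 transcripts occur in those of other genes.

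TAP2, the partner of TAP1 in the transporter (ENSG00000204267, chromosome 6, 32821833 to 32838770, minus strand), was level, at 35.6, 35.1 and 32.02 CPM in the vector libraries and 34.8, 34.1 and 33.95 CPM in the ELAPOR1 libraries. The ELAPOR1 libraries all lay within the range of the vector libraries. The 95% interval of the fold difference was 0.903 to 1.11 and the adjusted p was 0.996 by edgeR. TAP2 had the largest share of words found in transcripts of other genes, 31.3%, so its level is the least certain of the 9 in this respect. TAPBP (ENSG00000231925, chromosome 6, 33299694 to 33314387, minus strand) stood at 43.1, 40.6 and 42.3 CPM in the vector libraries and 40.1, 36.6 and 36.4 CPM in the ELAPOR1 libraries. The groups did not overlap, with the ELAPOR1 libraries the lower ones, but the gap was narrow. The difference of -0.16 ± 0.0685 (SE) on the log2 scale did not pass (edgeR adjusted p 0.0962). Its direction was the opposite of that of TAP1.

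NLRC5 (ENSG00000140853, chromosome 16, 56989485 to 57083531, plus strand) rose. The vector libraries held 3.99, 3.97 and 3.82 CPM, from 78, 82 and 63 counts, and the ELAPOR1 libraries 7.995, 8.46 and 7.41 CPM, from 130, 162 and 132 counts. The vector libraries lay close together, and every ELAPOR1 library was well above them. On the log2 scale the difference was 1.02 ± 0.173 (SE), or 2.02-fold with a 95% interval of 1.59 to 2.57 (edgeR adjusted p 3.01e-06). NLRC5 and B2M shared 0 of their 50-base words with other genes, HLA-E 4.87% and TAPBP 4.73%. NLRC5 did not pass in limma on log2(FPKM + 1), where its adjusted p was 0.0841. On that scale the log2 fold change was 0.314, since both groups lie below 1 FPKM and the added 1 shrinks the difference.

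Levels of different genes were compared per length, in the authors' FPKM, which divides counts by the exonic length of the gene and the library total. In vector cells the order was HLA-C at 83.1 ± 4.02 FPKM, B2M at 61.3 ± 2.28, HLA-E at 14.8 ± 0.650, TAPBP at 8.36 ± 0.265, TAP2 at 5.40 ± 0.304, TAP1 at 4.47 ± 0.517, HLA-B at 4.19 ± 0.226, NLRC5 at 0.317 ± 0.00577 and HLA-F at 0.183 ± 0.0681 (SD, n = 3). TAP2 and TAP1, and TAP1 and HLA-B, overlapped between libraries, and the other neighbours did not. HLA-C lay above 97.4% of all tested genes, HLA-B above 50.9% and NLRC5 above 9.61%. In ELAPOR1 cells HLA-B moved up to 9.71 ± 0.483 FPKM, above TAPBP at 7.39 ± 0.388. NLRC5 at 0.637 ± 0.0451 and HLA-F at 0.560 ± 0.0954 then overlapped. The order depends on the exonic length in the table, which was 5455 bases for B2M and 2507 for HLA-C.

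HLA-B made up 4.12%, 4.17% and 3.99% of the summed FPKM of the 4 heavy chains in the vector libraries and 8.65%, 9.53% and 8.82% in the ELAPOR1 libraries. The share of HLA-C was 81.2 ± 0.376% and 75.99 ± 0.135%, and that of HLA-E was 14.5 ± 0.522% and 14.5 ± 0.433% (SD, n = 3). The summed level itself was 97.2 to 106 FPKM in vector cells and 105 to 111 FPKM in ELAPOR1 cells, which overlap.

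**Figure D3:**
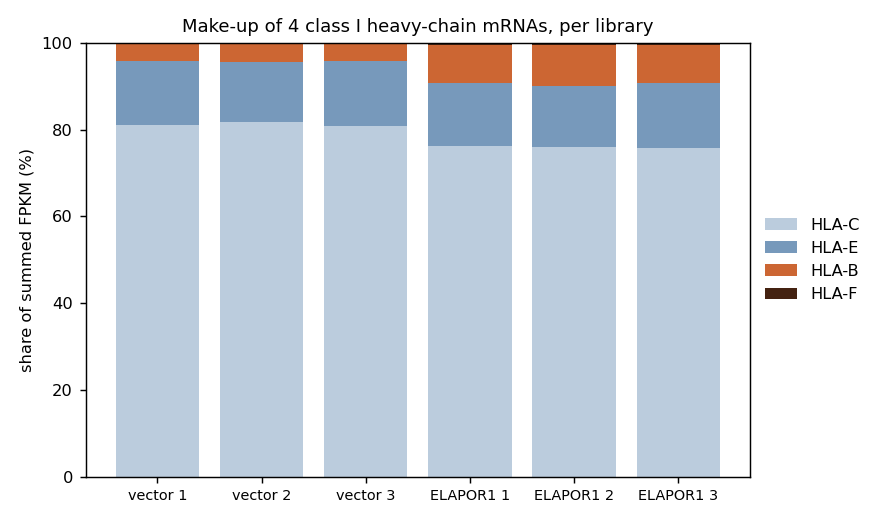
Share of HLA-C, HLA-E, HLA-B and HLA-F in the summed FPKM of these 4 heavy-chain genes (y axis, percent) in each of the 6 libraries (x axis). The HLA-B segment is 3.99% to 4.17% in the vector libraries and 8.65% to 9.53% in the ELAPOR1 libraries.

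Whether the genes moved by unequal amounts was asked with ratios of counts within each library, which need no scaling factor. Of 8 pairs compared, 6 did not overlap between the groups. Apart from TAP1 to TAPBP these all hold HLA-B or NLRC5, so they largely restate the rises of those genes. The share over other pairs of genes was not computed, and 33.8% of single tested genes did not overlap. The ratio of HLA-B to HLA-C was 0.0610, 0.0614 and 0.0593 in the vector libraries and 0.137, 0.151 and 0.140 in the ELAPOR1 libraries, a difference of 1.23 on the log2 scale. The difference was 1.14 for HLA-B to HLA-E and 1.25 for HLA-B to B2M, and it was 1.03 for NLRC5 to B2M. The ratio of HLA-B to NLRC5 was 3.00 to 3.35 in vector cells and 3.65 to 3.82 in ELAPOR1 cells, a difference of 0.22. TAP1 to TAPBP differed by 0.40, with ratios of 0.452 to 0.552 and 0.617 to 0.676. HLA-C to HLA-E and TAP1 to TAP2 overlapped, with differences of -0.10 and 0.24. Each of the 6 separated pairs had p = 0.1 in the exact permutation test (two-sided), the smallest that 3 libraries against 3 allow, and an adjusted p of 0.133 over the 8 pairs. The overlapping pairs had p = 0.2 and 0.4 in the same exact test, so none of the pairs could pass the threshold with this number of libraries.

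The rest of the pathway was read from lists of related genes. Outside the 9, 105 list genes were tested, of which 17 were higher and 15 lower, with a median log2 fold change of 0.01. That is 16.2% higher and 14.3% lower, against 10.0% and 11.4% of all tested genes. The lists, too, were chosen with earlier results of these data known, which may affect these shares.

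The immunoproteasome cuts proteins into peptides suited to class I. Of 6 genes in that list 2 rose and 0 fell, with a median of 0.07. PSMB8, a catalytic subunit, stood at 20.2, 21.7 and 24.4 CPM in the vector libraries and 31.9, 28.9 and 30.1 CPM in the ELAPOR1 libraries (log2 fold change 0.46, adjusted p 2.02e-05 by edgeR). PSMB9, another catalytic subunit, which lies beside TAP1 and overlaps it, stood at 2.50, 1.79 and 2.30 CPM and at 3.57, 4.02 and 4.55 CPM (0.88, adjusted p 0.00543 by edgeR). In both genes every ELAPOR1 library was above every vector library. Of the 3 constitutive catalytic subunits 1 rose, PSMB6 at 0.24, and 0 fell, with a median of 0.01.

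Of 16 genes of peptide loading and trimming, 2 rose (TAP1 among them) and 4 fell, with a median of -0.03. HSPA5, the chaperone BiP, fell from 529 ± 7.11 to 446 ± 3.13 CPM (SD, n = 3), and ERMP1, a peptidase of the endoplasmic reticulum, rose by 0.27. The lectin chaperone gene CANX, which helps new heavy chains fold, changed by -0.16 from 1158 ± 24.4 CPM. CALR and PDIA3 of the peptide-loading complex did not pass, at 0.07 and -0.08 (adjusted p 0.0610 and 0.0509 by edgeR).

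Of 21 transcription factor genes of class I promoters, 4 rose, NLRC5 included, and 2 fell, with a median of -0.03. After NLRC5 the largest of the called changes were those of NFYA, the DNA-contacting subunit of NF-Y, which fell from 88.5 ± 2.03 to 66.8 ± 1.78 CPM (-0.41, adjusted p 7.38e-10 by edgeR), and of RFXAP, an RFX subunit, at 0.30 (adjusted p 0.0153). The RFXAP call was lost without vector replicate 3 (adjusted p 0.179), without ELAPOR1 replicate 1 (0.0638), with DESeq2 (0.0792) and in all 3 limma fits. RFX5, the DNA-binding subunit of RFX, was called at 0.17 (adjusted p 0.0174). That call was lost when vector replicate 1 (0.111) or 2 (0.0534) or ELAPOR1 replicate 1 (0.0547) or 2 (0.161) was dropped, with DESeq2 (0.0880) and in all 3 limma fits. RFXANK, the ankyrin-repeat subunit, was at 0.03 (adjusted p 0.823). The second gene that fell was NFYB, another subunit of NF-Y, at -0.23 (adjusted p 0.00135 by edgeR), a call lost in 0 of 16 settings. NFKB1, an NF-kB subunit gene, was called at 0.24 (adjusted p 0.0125 by edgeR). The NFKB1 call was lost in 7 of 16 settings, among them DESeq2 and all 3 limma fits.

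Of 9 tested genes of interferon gamma receptor signalling 1 rose and 0 fell, with a median of -0.02. The kinase gene JAK2 rose from 3.94 ± 0.416 to 6.49 ± 1.31 CPM (0.71, adjusted p 0.00296 by edgeR), a call lost without ELAPOR1 replicate 3 (0.0555) and in all 3 limma fits. IRF1, a transcription factor induced by interferon gamma, did not pass, at -0.09 on the log2 scale with a 95% interval of -0.25 to 0.07.

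Of 21 genes known to be induced by interferon gamma, 14 had enough reads to test, of which 5 rose and 1 fell, with a median of 0.38. The gene that fell was WARS1 (-0.21, adjusted p 4.07e-06 by edgeR). Among those that did not pass were GBP1, CXCL10, CD274 and UBD. GBP4, GBP5, CXCL9, CXCL11 and IDO1 were among those with too few reads. The list shares PSMB8 and PSMB9 with the immunoproteasome. The guanylate-binding protein genes GBP2 and GBP3 showed the largest rises, at 2.69 and 2.25, from 0.423 ± 0.0136 and 0.498 ± 0.304 CPM with vector to 2.77 ± 0.496 and 2.33 ± 0.0300 CPM with ELAPOR1 (SD, n = 3). They rest on 7 to 9 and 6 to 14 counts in the vector libraries. At those counts neither gene would have entered the test, so both passed the read filter through the ELAPOR1 libraries. Their place as the largest rises thus depends partly on the filter.

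**Figure D4:**
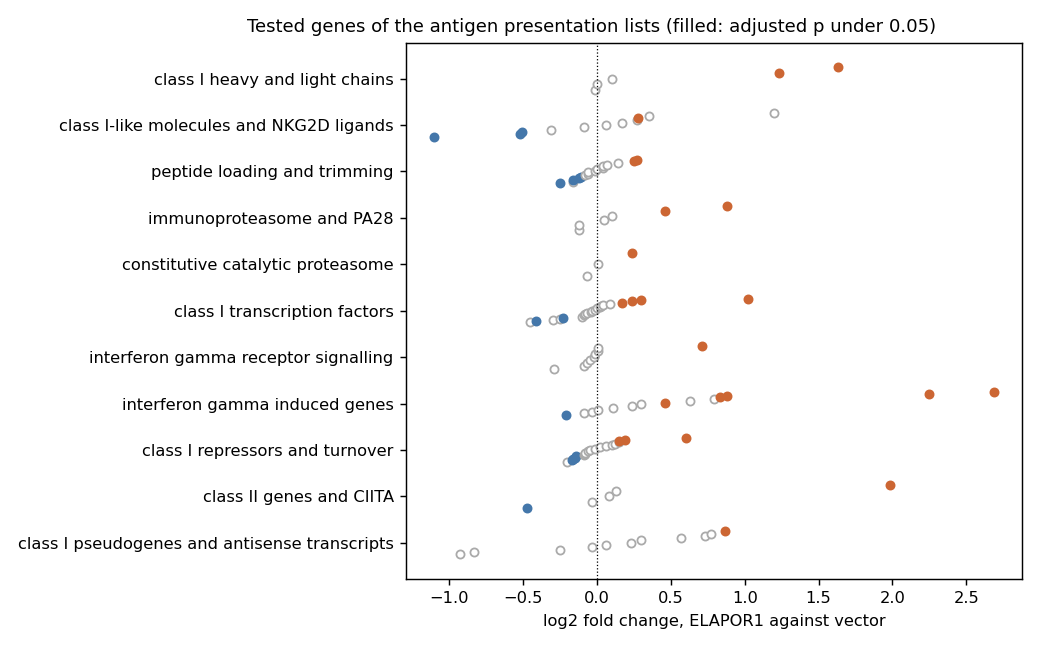
Log2 fold change, ELAPOR1 against vector (x axis), of every tested gene in 11 lists of antigen presentation genes (y axis); filled points passed an adjusted p of 0.05 in edgeR (orange higher, blue lower), and a gene on more than 1 list is drawn in each. Most lists hold both open points near 0 and a few separate filled ones, with GBP2 and GBP3 at 2.69 and 2.25 farthest to the right. Both of these passed the read filter only through the ELAPOR1 libraries.

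Of 5 tested class II genes, which present peptides to CD4+ T cells, 1 rose and 1 fell, with a median of 0.08. HLA-DQB1, a class II beta chain, held 16, 12 and 11 counts in the vector libraries and 47, 41 and 57 in the ELAPOR1 libraries (1.98, adjusted p 1.78e-05 by edgeR), while HLA-DQA1, its alpha chain partner, had 3 counts over all libraries. HLA-DMA was lower at -0.47 (adjusted p 0.0101), a call lost without vector replicate 3 (0.149), without ELAPOR1 replicate 3 (0.0654), with DESeq2 (also 0.0654) and in all 3 limma fits. CIITA, the class II counterpart of NLRC5, stood at 1.93 ± 0.563 and 1.92 ± 0.849 CPM, with a 95% interval of the log2 fold change from -0.69 to 0.63.

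Class I-like molecules and the stress ligands of NKG2D, an activating receptor of natural killer cells, were mixed: 1 of 11 rose and 3 fell, with a median of 0.06. RAET1L, an NKG2D ligand gene, fell from 11.3 ± 1.45 to 5.30 ± 0.850 CPM (-1.10, adjusted p 1.09e-08 by edgeR), and AZGP1, a secreted class I-like protein, changed by -0.52. ULBP2, another ligand gene, changed by -0.51 (adjusted p 0.0230), a call lost without vector replicate 1 (0.130), ELAPOR1 replicate 1 (0.0813) and ELAPOR1 replicate 3 (0.0763), with DESeq2 and in limma without a filter. Of 19 tested repressors and turnover factors of class I, 3 rose and 4 fell, with a median of -0.05. NBR1, a cargo receptor of autophagy, rose by 0.19, and EED of the Polycomb complex changed by -0.17 (adjusted p 0.0366). The EED call was lost without vector replicate 2 (0.118), vector replicate 3 (0.133), ELAPOR1 replicate 2 (0.234) and ELAPOR1 replicate 3 (0.0627), with DESeq2, with no filter and in all 3 limma fits. Among 11 tested pseudogenes and antisense transcripts 1 rose and 0 fell, with a median of 0.23. It was HCP5, a noncoding RNA next to the class I genes, from 7.66, 5.86 and 6.19 CPM to 11.7, 11.4 and 13.02 CPM (0.87, adjusted p 5.38e-07 by edgeR).

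The neighbourhood of the genes was described over the MHC region of chromosome 6 (GRCh38, tested genes from 28570535 to 33457544), where 7 of the 9 genes lie. Of 143 other tested genes there, 15 were higher and 10 lower, or 17.5% called against 21.4% of all tested genes, and their median log2 fold change was 0.024. Only HLA-DQB1 among the 25 called changed by at least 1 on the log2 scale. After it came LTB, the gene of lymphotoxin beta, at 0.89, and PSMB9 at 0.88. LTB averaged 1.81 ± 1.32 CPM with vector and 3.27 ± 0.185 CPM with ELAPOR1, and its adjusted p of 0.0254 became 0.181 and 0.205 when vector replicates 1 and 2 were dropped in turn, and 0.0562 and 0.0911 for ELAPOR1 replicates 2 and 3. The log2 fold change of LTB ranged from 0.60 to 1.64 over the fits that left out a library. LTB also lost its call with DESeq2 (0.153, or 0.307 with a local trend) and in all 3 limma fits (0.165 to 0.365). HLA-C, which of the 7 lies nearest to HLA-B, was level.

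**Figure D5:**
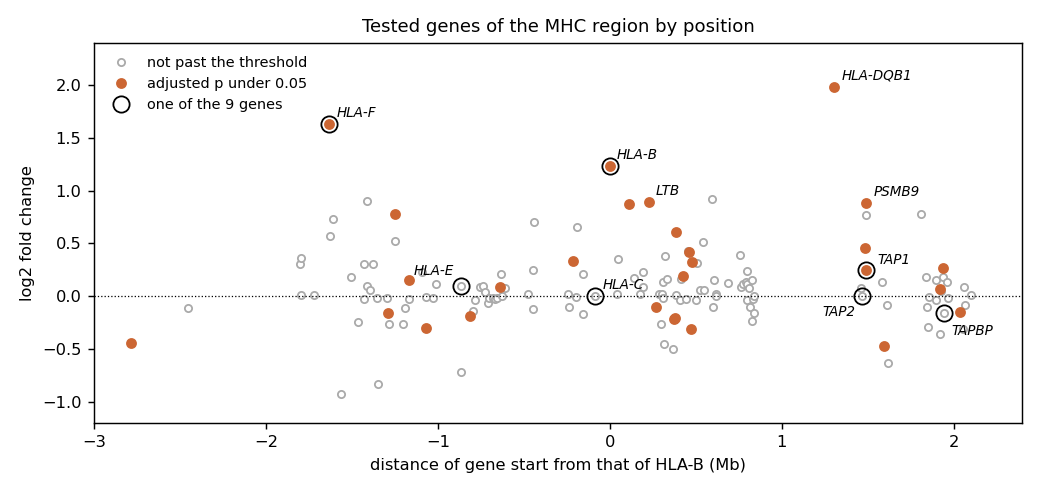
Log2 fold change (y axis) of the 150 tested genes of the MHC region against the distance of their start from that of HLA-B in Mb (x axis); filled points passed an adjusted p of 0.05 in edgeR and rings mark the 7 of the 9 genes that lie here. HLA-F, HLA-B and HLA-DQB1 stand at 1.63, 1.23 and 1.98, and every other gene drawn lies between -1 and 1.

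The genes whose profile was most like that of HLA-B were found by the root mean square difference of log2(CPM + 0.5), centred on the vector mean, over the 6 libraries, among 14288 genes averaging 1 CPM or more. They were CARD9, GULP1 and A1CF, with differences of 0.0740, 0.0956 and 0.108 and log2 fold changes of 1.28, 1.29 and 1.33. For NLRC5 they were ENSG00000231683, for which the table gives no symbol, HSD17B4 and NEU4, with differences of 0.0660, 0.0692 and 0.0723 and log2 fold changes of 0.97, 0.92 and 1.07.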

How the data were processed

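Poly(A) RNA of 3 vector and 3 ELAPOR1 libraries of SW620 cells was measured, made from 1 ug of total RNA each per the labels' protocols. The authors deposited raw read counts per gene, and FPKM values computed from them: recomputing FPKM from count, exonic length and library size returned each of the 142222 nonzero entries to within 0.01. The submitters' processing notes list, on genome build GRCh38, HTSeq 0.6.1, HISAT2 2.0.1, cutadapt 1.9.1 and DESeq2. No strand setting is given in the sources used here. The authors' deposited comparison table holds p-values and log2 fold changes, and also a mean signal and a Wald score that were not used. Columns were matched by name, with K read as ELAPOR1 (older symbol KIAA1324) and NC as negative control.

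The main test was that of edgeR 4.0.16, run in R 4.3.3 on the counts (filterByExpr, TMM, quasi-likelihood, Benjamini-Hochberg over 16003 genes). A standard error is the size of the log2 fold change divided by the root of its F statistic, and 95% intervals use the t quantile. Replicate pairs had a mean chi-square per gene of 2.44 to 3.65, above the value near 1 of sampling noise, so each library counted once. On simulated counts for ELAPOR1 against vector (15523 genes tested) edgeR recovered 62.7%, 86.6% and 95.5% of changes of 1.25-fold, 1.5-fold and 2-fold, with 6 false calls among 169. The simulation used the dispersion trend alone, and no change was given to the lowest-expressed genes. Its rates thus do not cover genes as low as HLA-F. Motif cores, shortened after longer forms of the kB and interferon elements had been searched, were matched in RefSeq promoters of GRCh38.p14, and shared words in GENCODE 29 transcripts. The 9 genes and the lists were chosen with earlier results of these data known. Besides the 9 genes and ELAPOR1, the text names up to 3 called genes per list with the largest change (or the one with the smallest p), the 3 largest called changes of the MHC region at 1 CPM or more, and the 3 profiles nearest to HLA-B and NLRC5. A few others (CANX, CALR, PDIA3, RFX5, RFXANK, NFYB, NFKB1, IRF1, CIITA, HLA-F-AS1, PSMB8-AS1, HLA-DQA1, LYZ, CD4, COL1A1 and the marker genes at or near 0) were chosen after their values were seen. So were WARS1, GBP1, CXCL10, CD274, UBD, GBP4, GBP5, CXCL9, CXCL11 and IDO1. Some genes that the rule names are not reported here. Alternatives were DESeq2 1.42.0 with either dispersion trend, RLE factors, library sizes alone, no filter, a floor of 10 counts throughout 1 group, limma 3.58.1 on log2-transformed FPKM (pseudocount 1 or 0.1, genes reaching 0.5 FPKM in 3 libraries, or unfiltered), a replicate block, and each library left out in turn.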

Additional observations from a re-analysis of the deposited data

How the results depend on the processing

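HLA-B kept its rise under all 16 alternatives, and HLA-F and NLRC5 kept theirs under every one on counts. With limma on FPKM the log2 fold change of NLRC5 was 0.314 with a pseudocount of 1, filtered or not, and 0.820 with 0.1, none past the threshold (adjusted p 0.0735 to 0.112); that of HLA-F was 0.398 unfiltered (0.0558), and the filter left it without a value. TAP1 lost its call with DESeq2 (0.242, or 0.243 with a local trend), library sizes alone (0.224), no filter (0.240) and limma (0.185, 0.220 and 0.185). HLA-C and TAP2, at 0.0005 and -0.0009, changed sign without passing: HLA-C was -0.00097 and -0.0011 with DESeq2, -0.021 with library sizes alone, -0.0048 with no filter and -0.020 with limma, and TAP2 was 0.00065 with RLE factors. Members called higher numbered 4 by edgeR, 3 by DESeq2 and 1 by limma on FPKM. DESeq2 called 1030 genes higher, against 1607 by edgeR. In either direction edgeR called 3427 genes, 32 pathway genes and 25 genes of the MHC region, the last 2 without the 9; DESeq2 called 21 pathway and 15 region genes. Over its own sets of tested genes limma called 2133, 18 and 15 with a pseudocount of 1, 2098, 17 and 14 with 0.1, and 1378, 14 and 8 unfiltered, and in these fits 727, 713 and 452 genes were higher. Of 48 called genes followed through the settings, 24 lost their call under at least 1 setting and 0 changed direction. ERMP1, HCP5, PSMB9, KRT20, GBP3 and NBR1 lost theirs in limma fits alone. The cause of these shifts was not tested.

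Leaving out 1 library gave 1.19 to 1.28 for HLA-B, 1.44 to 1.99 for HLA-F, 0.968 to 1.07 for NLRC5, 0.190 to 0.338 for TAP1, -0.042 to 0.035 for HLA-C, -0.047 to 0.0096 for B2M and -0.045 to 0.024 for TAP2, with 3 to 4 members and 2723 to 3187 genes called. RFXANK and CIITA, neither called, ranged from -0.035 to 0.098 and from -0.249 to 0.306. With the replicate block 3361 genes and the same number of members, 4, were called, and TAP2 was at 0.0015; it changed no call of the 9. Same-numbered libraries had deviations from their group means correlated at -0.02, -0.03 and -0.02, and for 0 of 6 was the best match the one sharing its number, so the numbers were not treated as a pairing. Depth limits HLA-F, with 9 to 47 counts per library.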
